A study of Homo sapiens with 11 samples.

Results

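The oligoadenylate synthetase (OAS) genes OAS1, OAS2, OAS3 and OASL were followed across 4 conditions of a human cancer cell line. They were picked by symbol, with earlier results of these data known. They are 4 of the 58699 genes in the deposited table of total RNA. OAS1, OAS2 and OAS3 proteins bind double-stranded RNA and then make short oligoadenylates, which switch on a latent ribonuclease that cuts cellular and viral RNA. OASL has the same fold followed by ubiquitin-like domains, makes no oligoadenylate, and is known for its part in signalling by the RNA sensor RIG-I. All 4 genes are interferon-stimulated genes, which are transcribed when interferons bind their receptors, through factors such as STAT2 and IRF9.

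The cells were HCT116, an established colorectal cancer line. The control siRNA targeted luciferase (siLuc), and the other targeted Staufen1 (siStau1), a protein that binds double-stranded RNA and is encoded by STAU1. Each siRNA was combined with the solvent DMSO or with DAC, the nucleoside decitabine, which inhibits DNA methylation, given at 500 nM. Day 5 was recorded for the DMSO and DAC groups alike. Each of the 4 groups (siLuc DMSO, siStau1 DMSO, siLuc DAC and siStau1 DAC) had 2 libraries, and the labels do not say whether these came from separate cultures.

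The deposited table gives 1 FPKM value per gene and group, that is, fragments scaled to transcript length and library size, which allows levels of different genes to be compared. Single libraries are not listed in it, so the spread between replicates and the depth are unknown, and every call of a change below is the authors' own, at a q-value (adjusted p-value) under 0.05. STAU1 itself was at 35.5 FPKM without and 33.7 with DAC in siLuc cells, and 30.0 without and 27.1 with DAC in siStau1 cells. Its difference between siRNAs was not called in the authors' deposited table, with q = 0.767 in DMSO and q = 0.685 in DAC, so the siRNA groups are named by their labels only. Of 8 markers of colorectal epithelium, 6 were at or above 1 FPKM in all groups, while VIL1 and CDX1 stayed under 1 FPKM in all groups. The epithelial sum was higher with DAC, at 6786 against 2065 FPKM in siLuc and 4916 against 1703 in siStau1, with KRT18 at 3469 against 681 FPKM in siLuc and EPCAM lower, at 117 against 259. Of 6 blood markers 5 were under 1 FPKM in every group, with summed levels from 0.212 to 3.36 FPKM that were higher in both DAC groups. The same held for 5 of 6 fibroblast and endothelial markers, with sums from 1.12 to 10.7 FPKM and COL1A1 as the exception at up to 8.60 FPKM. PTPRC, COL1A2 and LUM were listed at 0 FPKM in both DMSO groups. The part of these markers in the OAS differences was not tested. In RNA from whole cultures, fewer cells expressing a gene and less RNA per cell cannot be told apart.

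OAS1 (ENSG00000089127.12), OAS3 (ENSG00000111331.12) and OAS2 (ENSG00000111335.12) lie in this order on the plus strand of chromosome 12 in the GRCh38 build. By GENCODE release 29 they span 112906777 to 112933222, 112938352 to 112973249 and 112978395 to 113011723, with gaps of 5.13 kb and 5.14 kb between them. OASL (ENSG00000135114.12) lies 8.01 Mb further along on the minus strand, from 121019111 to 121039242. The longest coding sequence has 1242 bases in OAS1, 2178 in OAS2, 3261 in OAS3 and 1542 in OASL. By local alignment, OAS1 matched bases 2320 to 3146 of the OAS3 coding sequence at 71.6% identity and bases 1438 to 1979 of OAS2 at 70.6%. No match to OASL reached the score minimum of 100. The longest stretch shared base for base by transcripts of any pair was 31 bases, between OAS1 and OASL. The table lists OAS1, OAS2 and OAS3 under 1 shared locus, and how reads were divided within it is not given in the sources used here. An antisense gene, AC004551.1, runs across the locus and shares 92 of 4947 exon bases with OAS1, and it was listed at 0 FPKM in 3 groups and at 0.0603 in siStau1 DAC.

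Promoters are shown for those OAS genes that had a window in the reference used. The RefSeq table (GRCh38.p14) held 2 of the 4 genes, OAS1 (chr12:112906712-112906961, plus strand) and OAS3 (chr12:112938224-112938473, plus strand). These are the 250 bases before the RefSeq start site, which lies 185 bases after the GENCODE gene start in OAS1 and 122 bases after it in OAS3. Capitals mark each copy of AAACGAAAC, the core of the longest run common to both windows.
OAS1: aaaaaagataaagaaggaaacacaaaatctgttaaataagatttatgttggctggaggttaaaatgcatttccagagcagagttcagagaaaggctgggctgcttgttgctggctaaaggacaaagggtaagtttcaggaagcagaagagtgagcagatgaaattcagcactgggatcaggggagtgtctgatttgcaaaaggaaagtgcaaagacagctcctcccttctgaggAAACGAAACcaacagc
OAS3: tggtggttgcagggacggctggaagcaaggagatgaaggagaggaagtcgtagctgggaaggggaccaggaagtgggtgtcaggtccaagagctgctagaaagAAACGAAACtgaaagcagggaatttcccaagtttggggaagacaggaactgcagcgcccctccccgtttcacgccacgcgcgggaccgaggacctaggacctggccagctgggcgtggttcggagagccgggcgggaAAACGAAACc
The 11-base run AAACGAAACCA was the longest found in both windows of 300 bases, which reach 50 bases past the start. It occurred in 5 of 35116 RefSeq windows, or 0.0142%, and these belonged to OAS1, OAS3, PLSCR1 and LINC02754. The run was picked from the OAS1 and OAS3 windows, so its presence in both was fixed and its share is no test. Its core AAACGAAAC was in 39 windows (0.111%), including those of MX1, RSAD2, HERC5 and XAF1 among 17 other interferon-stimulated genes with a window. Counting the start base as 0, the core lay at -16 to -8 in OAS1, and at -147 to -139 and -10 to -2 in OAS3.

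The classical form of the interferon-stimulated response element, GAAA and GAAA with any 2 bases between them, was searched on both strands and was found in 3.57% of windows. OAS3 had 2 matches, GAAACTGAAA at -143 to -134 and GAAAACGAAA at -12 to -3, and both overlapped a copy of the core. OAS1 had no match of these letters in its window, whereas 15 of the 17 other interferon-stimulated genes had at least 1. Counted by gene symbol and not by window, 1195 of 27305 symbols had a match. A shorter form chosen after the values were seen, AANNGAAA, was in the windows of OAS1, OAS3 and all 17 of those interferon-stimulated genes. It was in 22.8% of all windows, and in 7295 of 27305 gene symbols. The element TTCNNNGAA, the gamma-activated sequence of the interferon gamma pathway, was at -168 to -160 in OAS1 and in 7.66% of windows, and OAS3 had no match. The windows also differed in CpG sites, the sites of DNA methylation. OAS1 had 1 CpG in 300 bases, which lay inside the core, and 11.0% of windows had as few. OAS3 had 20 CpG sites, 2 of them in cores, against a median of 14 over all windows. Methylation itself was not analysed here.

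In control cells, OAS1, OAS3 and OASL were abundant and OAS2 was scarce. The OAS1 level was 96.1 FPKM without and 111 with DAC in siLuc cells, and 14.9 without and 64.0 with DAC in siStau1 cells. The OAS3 level was 54.3 FPKM without and 107 with DAC in siLuc cells, and 17.6 without and 68.3 with DAC in siStau1 cells. OAS1 and OAS3 were thus within a factor of 2 of each other in every group. OAS2 was listed at 1.61 FPKM without and 15.8 with DAC in siLuc cells, and 0.0735 without and 10.7 with DAC in siStau1 cells, and was the lowest of the 4 genes in every group. The level of OASL was 51.2 FPKM without and 239 with DAC in siLuc cells, and 7.20 without and 84.0 with DAC in siStau1 cells, the widest range of the 3 abundant genes.

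All 4 genes were highest in siLuc DAC and lowest in siStau1 DMSO. That order at both ends was seen in 15 of 20 other interferon-stimulated genes and in 3789 of 12610 protein-coding genes with at least 1 FPKM in a group (30.0%). In the middle, OAS1 was higher in siLuc DMSO than in siStau1 DAC, and OAS2, OAS3 and OASL were higher in siStau1 DAC. The leading gene changed from OAS1 in siLuc DMSO to OAS3 in siStau1 DMSO and to OASL in both DAC groups. Without replicate values, it cannot be said which neighbours in these orders differ beyond their spread.

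**Figure D1:**
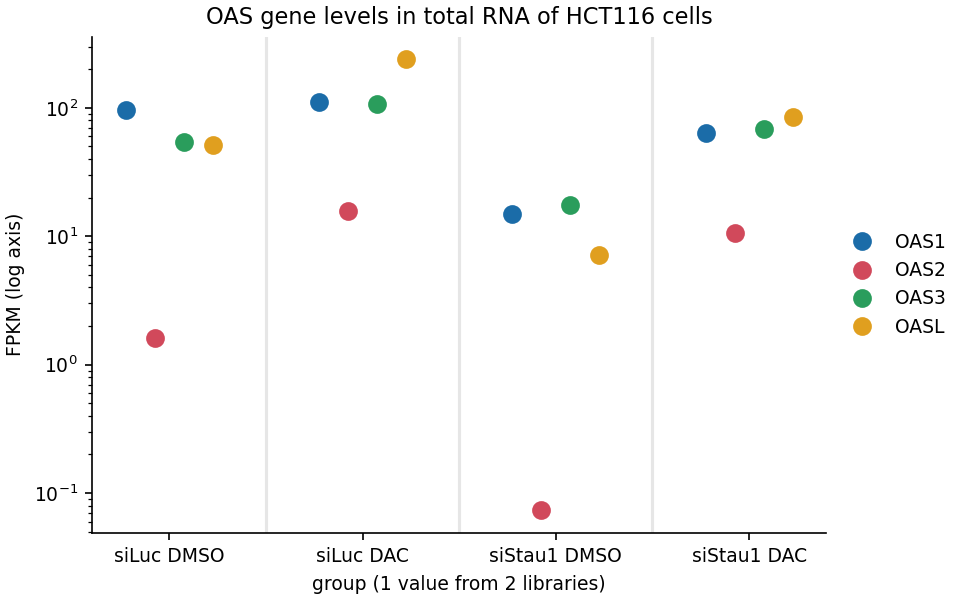
Level of each OAS gene (FPKM, log axis) in the 4 groups, each point being 1 value from 2 libraries, with no error available. All 4 genes are lowest in siStau1 DMSO, where OAS2 is at 0.0735 FPKM, and OASL leads in both DAC groups.

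The make-up of the family differed between groups. Summed over the 4 genes, the level was 203 FPKM without and 473 with DAC in siLuc cells, and 39.8 without and 227 with DAC in siStau1 cells. The OASL share of that sum was 25.2% in siLuc DMSO and 50.4% in siLuc DAC, and in siStau1 it was 18.1% with DMSO and 37.0% with DAC. The OAS1 share was 47.3% and 23.6% in the siLuc groups, and 37.5% and 28.2% in the siStau1 groups, DMSO first. So with each siRNA the DAC group held a larger share of the member that makes no oligoadenylate and a smaller share of OAS1. OAS3 held 26.7% and 22.6% in the siLuc groups and 44.2% and 30.1% in the siStau1 groups. OAS2 was between 0.185% and 4.70% of the sum.

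The first comparison asked what decitabine did in control cells. In siLuc cells, OAS2 and OASL rose with DAC, while OAS1 and OAS3 were not called. OAS2 was 9.84-fold higher, a log2 ratio of 3.22 after 0.1 FPKM was added to both groups, with q = 0.0109 in the authors' deposited table. OASL was 4.66-fold higher (log2 ratio 2.22), with q = 0.00162, the smallest the authors' deposited table holds. OAS3 was 1.97-fold higher with q = 0.0999, and OAS1 was 1.16-fold higher with q = 0.924, both in the authors' deposited table. So 2 of 4 OAS genes were called, both higher, where 13.5% of 17504 tested genes were called and 8.71% were called higher. At q under 0.01 the count was 1 of 4, OASL, beside 7.97% of genes. The median log2 ratio was 1.60 over the 4 genes and 0.23 over all tested genes. The OAS1 direction flipped when groups were scaled to the same sum of FPKM (log2 ratio -0.45), and the OAS3 log2 ratio was 0.54 when centred on genes of like GC content, against 0.98 as listed. That sum scaling moved the median of genes with at least 1 FPKM from 0.079 to -0.57. The 3 highest genes held 31.1% of the FPKM in siLuc DMSO and 41.7% in siLuc DAC.

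Decitabine in siStau1 cells gave larger ratios for all 4 genes. OASL rose 11.7-fold (log2 ratio 3.53) and OAS3 rose 3.88-fold (log2 ratio 1.95), both with q = 0.00162 in the authors' deposited table. OAS2 also rose, with a log2 ratio of 5.95 and q = 0.0366 in the authors' deposited table, and its 145-fold ratio rests on 0.0735 FPKM in siStau1 DMSO. OAS1 was 4.29-fold higher but not called: its p-value was 0.04835 and its q-value 0.273 in the authors' deposited table. The count was 3 of 4 called, all higher, beside 7.46% of 16979 tested genes called and 4.56% called higher. The median log2 ratio was 2.81 over the 4 genes and 0.11 over all tested genes. OAS1 therefore had a ratio above that of OAS3 and missed the threshold that OAS3 passed.

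The DAC ratios in the siRNA arms can be set against each other only as a description, since no interaction can be tested without values per library. The log2 ratio for DAC was higher in siStau1 than in siLuc by 1.88 for OAS1, 2.73 for OAS2, 0.97 for OAS3 and 1.31 for OASL. A difference as high was seen in 1.66%, 0.664%, 7.02% and 3.84% of 15956 genes tested in both arms, in the same order, and the median over those genes was -0.016. For OAS2 the difference was 0.75 with a pseudocount of 1 FPKM and 3.71 with 0.01 FPKM, so its size is not fixed by these values. The larger DAC ratios in siStau1 went with lower DMSO levels, not with higher DAC levels, for each of the 4 genes.

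**Figure D2:**
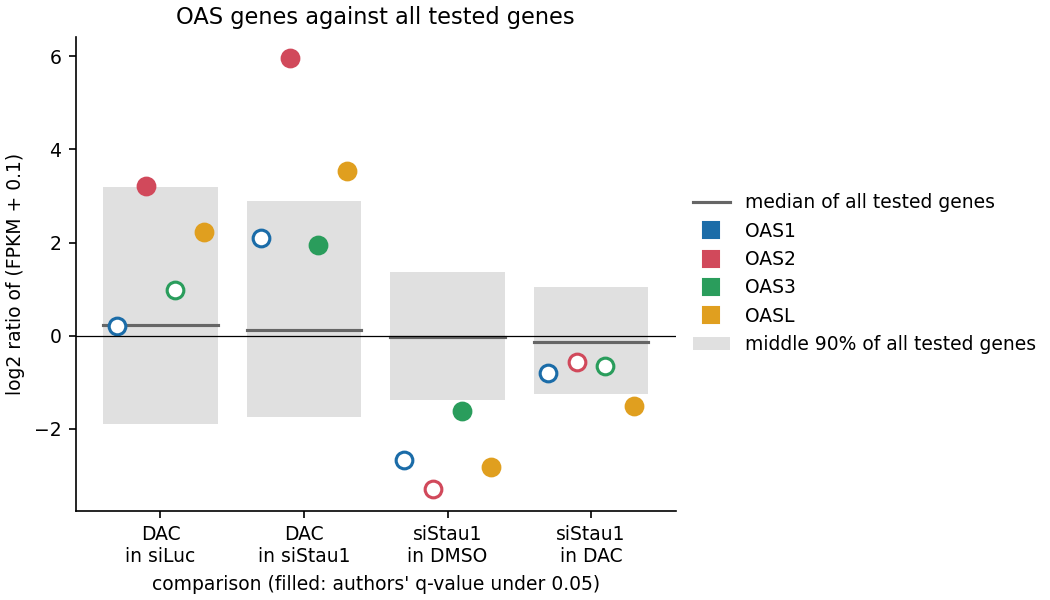
Log2 ratio of FPKM + 0.1 for each OAS gene in the 4 single-factor comparisons (DAC over DMSO, siStau1 over siLuc), with the median (line) and the middle 90% (grey) of all tested genes, and filled points for an authors' q-value under 0.05. All 4 genes are below the grey band for siStau1 against siLuc in DMSO, while OAS1 is open in every comparison.

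The siStau1 groups were next set against siLuc. Without DAC, OAS3 and OASL fell in siStau1, and OAS1 and OAS2 were lower without being called. OASL was 7.12-fold lower (log2 ratio -2.81) and OAS3 was 3.09-fold lower (log2 ratio -1.62), both with q = 0.00162 in the authors' deposited table. OAS1 was 6.44-fold lower (log2 ratio -2.68), with a p-value of 0.01195 and q = 0.112 in the authors' deposited table. OAS2 was 21.9-fold lower at levels of at most 1.61 FPKM, with q = 0.0638 in the authors' deposited table. These 2 calls of 4, both lower, stood in a comparison in which 0.799% of 15893 tested genes were called, and 0.466% called lower. The median log2 ratio was -2.75 over the 4 genes and -0.020 over all tested genes, of which 5% lay below -1.38. STAU1 itself was 30.0 FPKM here against 35.5 in siLuc DMSO.

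The OAS1 call was also set beside those of genes that fell at least as far. Of 6 protein-coding genes with at least 5 FPKM in both DMSO groups and a log2 ratio at least as low as that of OAS1, the authors' deposited table calls 5: IFITM1, IFI27, BST2, OASL and IFI35. OAS1 was the 1 not called. By this rule it was also the least reduced of the 6, at -2.68, against -2.81 for OASL and -4.43 for IFITM1. OAS1 had 11 annotated transcripts, and OAS2, OAS3 and OASL had 7, 7 and 4. OAS2, with 7 like the called OAS3, was not called either. Whether transcript number has a part in the calls was not tested.

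With DAC in both groups, OASL was the 1 OAS gene called between siRNAs. It fell 2.84-fold in siStau1 (log2 ratio -1.50), with q = 0.00162 in the authors' deposited table. OAS1 was 1.74-fold lower, OAS2 1.48-fold and OAS3 1.57-fold, with q-values of 0.688, 0.826 and 0.425 in the authors' deposited table. That is 1 of 4 called, beside 0.904% of 17263 tested genes called and 0.469% called lower. The median log2 ratio was -0.72 over the 4 genes and -0.14 over all tested genes. When the authors' p-values were adjusted within this comparison alone, 0 of 17263 genes passed (0%), OASL included, although 1199 had an unadjusted p-value under 0.05. The authors' p-value for OASL was 5e-05, the smallest their deposited table holds. No value under that floor is listed, so this 0 cannot show whether the OASL change was weak. The OAS3 log2 ratio was -0.65 as listed and -0.32 when centred on genes of like GC content.

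As a percentage of the siLuc level, the siStau1 level without DAC was 15.5% for OAS1, 4.58% for OAS2, 32.4% for OAS3 and 14.1% for OASL. With DAC the percentages were 57.4%, 67.4%, 63.8% and 35.2%, in the same order. Over 20 other interferon-stimulated genes the median was 23.8% without DAC, in a range from 0.232% to 85.8%, and 59.8% with DAC, in a range from 32.2% to 149%. The 4 OAS values lay inside those ranges in both.

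Finally, siStau1 DAC was compared with siLuc DMSO, which differ in both factors. None of the 4 OAS genes was called in the authors' deposited table, where 4.98% of 16909 tested genes were, and OAS2 and OASL had an unadjusted p-value under 0.05 (0.01615 and 0.0316), as did 13.6% of tested genes. OAS1 was at 66.6% of its siLuc DMSO level, OAS3 at 126%, OASL at 164% and OAS2 at 664%. OAS1 was the 1 member below its control level, with q = 0.784 in the authors' deposited table. The OAS3 direction flipped with scaling to the same sum of FPKM, where its log2 ratio was -0.071 against 0.33 as listed. These 5 comparisons share groups, so they are not independent of each other.

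The wider pathway was read from lists of named genes. Of 5 proteins listed for the oligoadenylate pathway, none was called in any of the 5 comparisons in the authors' deposited table, where 0.799% to 13.5% of all tested genes were, so a count of 0 is near that share. Of them, ABCE1, an inhibitor of the ribonuclease and a ribosome recycling factor, was the most abundant, at 158 FPKM without and 90.3 with DAC in siLuc cells, and 226 without and 122 with DAC in siStau1 cells. Their median log2 ratio was -0.81 for DAC in siLuc and 0.43 for siStau1 in DMSO, and -0.064 and 0.081 when centred on genes of like GC content, with members on both sides of 0. The other members were PDE12, which degrades oligoadenylates, AKAP7, ENPP1 and CNP.

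Among 4 interferon genes, IFNL1 rose with DAC in siLuc (q = 0.0134 in the authors' deposited table), beside 8.71% of all tested genes called higher. Its level was 3.97 FPKM without and 15.5 with DAC in siLuc cells, and 0.0589 without and 2.71 with DAC in siStau1 cells, so it was highest and lowest in the same groups as the OAS genes. IFNB1 was instead highest in siLuc DMSO, at 2.63 FPKM against 1.27 in siLuc DAC. IFNL1, IFNL2 and IFNL3 fell in siStau1 with DAC, where 0.469% of all tested genes were called lower. Without DAC, IFNB1 was called lower in siStau1, where it was listed at 0 FPKM, beside 0.466% of all tested genes. IFNL1, IFNL2 and IFNL3 were lower there without being called, at 0.0589, 0.0356 and 0.124 FPKM in siStau1 DMSO, near the floor. For DAC in siStau1, 0 of 3 tested interferon genes were called, beside 7.46% of all tested genes. The IFNL log2 ratios there were 4.14, 4.07 and 3.11, and rest on those low values.

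Of 12 receptors and signal proteins, STAT2, IRF3 and IRF7 rose with DAC in siLuc, and STAT2 and IRF7 rose with DAC in siStau1. None was called between siRNAs without DAC, and IRF7 fell in siStau1 with DAC. Beside these, 8.71% and 4.56% of all tested genes were called higher with DAC in siLuc and in siStau1. Between siRNAs, 0.799% were called without DAC and 0.904% with DAC, so a count of 0 is near that share. IRF7, a factor that drives interferon transcription, was at 11.8 FPKM without and 78.5 with DAC in siLuc cells, and 6.11 without and 32.9 with DAC in siStau1 cells. STAT2 was at 22.6, 52.8, 13.3 and 32.2 FPKM in the same order of groups. Their median log2 ratio was 0.32, 0.36, -0.34 and -0.29 for DAC in siLuc, DAC in siStau1, siStau1 in DMSO and siStau1 in DAC, and 0.30, 0.57, -0.51 and -0.16 when centred on genes of like GC content. Of 10 other nucleic acid sensors and partners, 8 or 9 were tested in each comparison. Among them, DHX58 rose with DAC in siLuc. IFIH1 and DDX58 (RIG-I) rose with DAC in siStau1. DDX58 fell in siStau1 without DAC, and none was called in siStau1 with DAC. The same shares of all tested genes stand beside these calls, so the count of 0 is near its share of 0.904%.

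Most calls were among the 20 other interferon-stimulated genes. Of them, 7 rose with DAC in siLuc and 11 with DAC in siStau1, 14 fell in siStau1 without DAC and 5 fell in siStau1 with DAC. The shares of all tested genes called in those directions were 8.71%, 4.56%, 0.466% and 0.469%, in that order. The median log2 ratios of these 20 genes were 0.74, 2.44, -2.07 and -0.74, against 1.60, 2.81, -2.75 and -0.72 for the OAS genes. The antiviral GTPase MX1 was at 3.74, 266, 2.08 and 118 FPKM, siLuc before siStau1 and DMSO before DAC. IFIT1, a protein that binds foreign RNA ends, was at 207, 83.6, 79.4 and 125 FPKM in the same order, so it was lower with DAC than without it in siLuc, with q = 0.119 in the authors' deposited table. The log2 ratio for DAC in siLuc was 6.11 for MX1 and -1.31 for IFIT1, and those of the OAS genes lay between them, from 0.21 for OAS1 to 3.22 for OAS2.

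**Figure D3:**
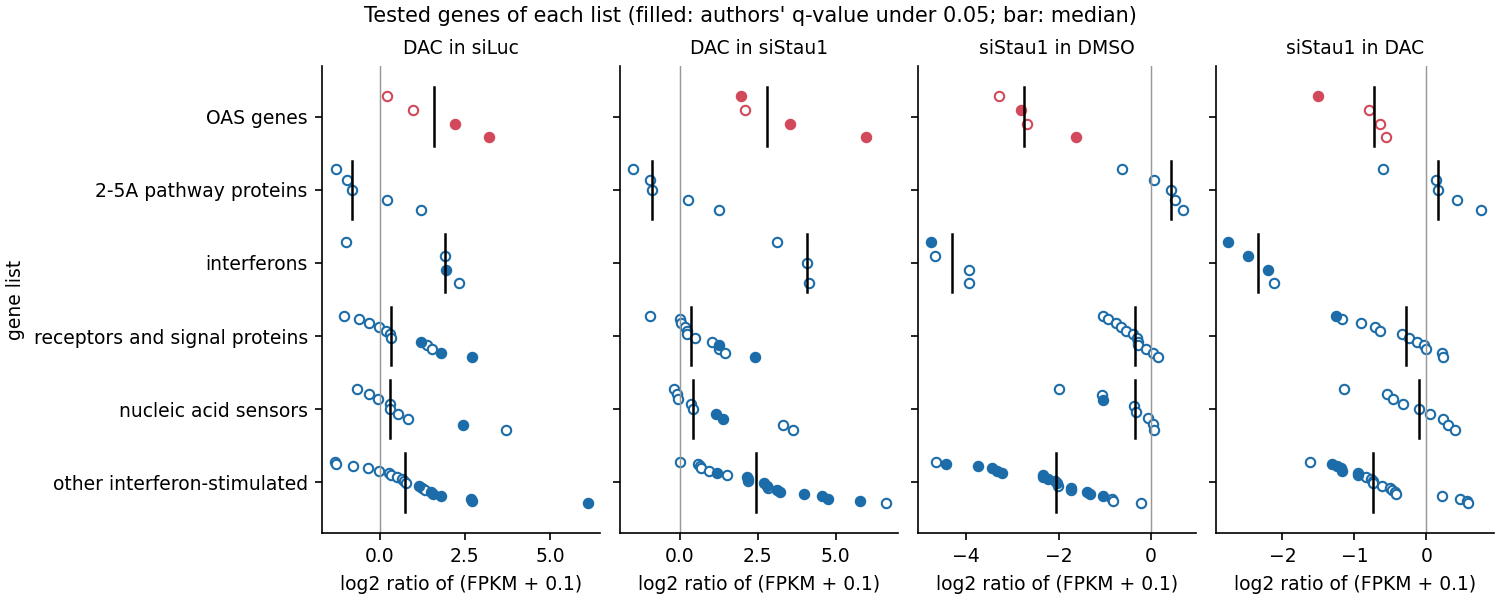
Log2 ratio of FPKM + 0.1 for the tested genes of the OAS family (red) and of 5 gene lists (blue) in the 4 single-factor comparisons, with bars at list medians and filled points for an authors' q-value under 0.05. The 20 other interferon-stimulated genes are all below 0 for siStau1 against siLuc in DMSO.

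Levels were also read for the genes beside the OAS genes. Within 250 kb lay 31 other genes, of which 10 reached 1 FPKM in a group and 13 were listed at 0 FPKM in all groups. In the authors' deposited table, 10 of the 31 were tested in each single-factor comparison, and 0 of these were called between siRNAs in DMSO or in DAC, or for DAC in siStau1. With 0.799%, 0.904% and 7.46% of all genes called there, a count of 0 is near the background and says nothing particular about the neighbours. The 1 call, beside 13.5% of all genes, was DTX1 for DAC in siLuc, a regulator of Notch signalling at 0 FPKM in siLuc DMSO and 0.864 FPKM in siLuc DAC, named after its values were seen. DDX54, an RNA helicase and the most abundant neighbour of the OAS1 cluster, was at 63.0 FPKM without and 96.1 with DAC in siLuc cells, and 32.0 without and 71.6 with DAC in siStau1 cells. Its group order was that of OAS2, OAS3 and OASL, as was that of the neighbours RITA1 and RASAL1. Both ends of that order were seen in 30.0% of protein-coding genes with at least 1 FPKM in a group. The DDX54 log2 ratio of -0.97 for siStau1 in DMSO had q = 0.329 in the authors' deposited table. Beside OASL lay 16 of the 31 genes, of which 5 reached 1 FPKM, and only 4 or 5 were tested in each comparison.

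**Figure D4:**
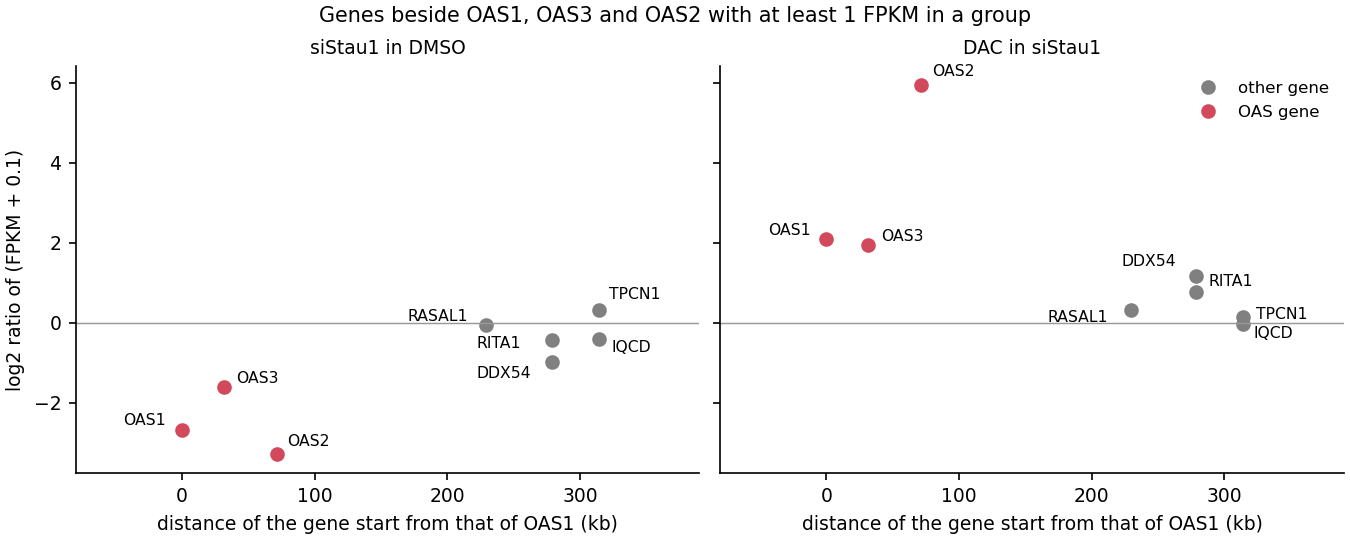
Log2 ratio of FPKM + 0.1 for OAS1, OAS3 and OAS2 (red) and the 5 genes within 250 kb of them that reached 1 FPKM in a group (grey), by distance of gene starts from OAS1 in kb, for siStau1 against siLuc in DMSO (left) and DAC in siStau1 (right). In DMSO the OAS genes are lower than every neighbour shown, of which DDX54 is the lowest at -0.97.

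Genes whose levels moved most like each OAS gene were ranked among 12609 protein-coding genes by distance between centred log2(FPKM + 0.1) values over the 4 groups. The nearest to OASL were IFI35 (0.410), TAPBPL (0.422) and CFB (0.4996). For OAS2 they were APOL1 (0.765), XAF1 (0.968) and AURKC (1.12). The nearest to OAS3 were FMN1 (0.136), APOL6 (0.140) and STC2 (0.141), and those to OAS1 were PATL2 (0.110), DPF3 (0.308) and GRM4 (0.333). OAS1 and OAS3 were at a distance of 0.82 from each other, OAS2 and OASL at 1.87, and OAS1 and OAS2 at 3.47. By this measure OASL was number 34 in the ranking for OAS2 and OAS3 number 36 in that for OAS1, the closest places any OAS gene held for another. With a pseudocount of 1 FPKM these became 176 and 11, and OAS2 was number 19 for OASL. With that pseudocount, IFI35 and STC2 were the 2 of these 12 genes that remained among the nearest, so for low genes such as PATL2 the place depends on the pseudocount.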

How the data were processed

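Total RNA of 4 HCT116 groups with 2 libraries each was analysed. Per the labels' protocols, libraries were stranded and ribosomal RNA was depleted. Per the submitters' processing notes, the tools were HISAT2 2.1.0 and Cuffdiff 2.2.1 on hg38. The roles of the other tools named there are not given in the sources used here, nor is whether counting used strand. Per the file headers, the authors deposited 1 FPKM value per gene and group and a p-value and q-value for each of 6 pairwise comparisons. The q-values were adjusted by Benjamini-Hochberg over all 102180 tests together, recomputed to within 5.3e-07. No value per library is in the table, so the planned limma test was replaced by the authors' calls.

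Log2 ratios were computed here with 0.1 FPKM added, using Python 3.11.15, pandas 2.3.3 and Biopython 1.88, and the functions were tested on simulated data. Centring on GC content used 20 bins of protein-coding genes. Named genes were the 4 members, genes of the lists called in a single-factor comparison, neighbours with at least 1 FPKM, the 3 nearest genes by pattern, and STAU1. Others named were chosen after their values were seen: ABCE1, PDE12, AKAP7, ENPP1 and CNP as a list with no call, DTX1, and the genes as reduced as OAS1. The members and lists were chosen with earlier results of these data known. Alternatives were other pseudocounts, scalings, q-value thresholds, adjustments and element forms. Tables of RNA bound by the antibody J2 name repeats and no gene, and were not used. Some genes of the table are not reported here.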

Additional observations from a re-analysis of the deposited data

How the results depend on the processing

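Each group has 1 value from 2 libraries, so no library could be left out and no test of the differences could be made here. No paired analysis was possible because the table gives 1 value per group and none per library. The 20 log2 ratios of OAS genes were recomputed under other pseudocounts, a filter, scalings and centrings. Only scalings and centrings could turn a direction, since the same pseudocount in both groups and the filter cannot. Of the 138 recomputed ratios, 136 kept their direction. The exceptions, both with scaling to the same sum of FPKM, were OAS1 for DAC in siLuc (-0.45) and OAS3 for siStau1 DAC against siLuc DMSO (-0.071). The 3 highest genes held 26.6% to 41.7% of that sum. At a q-value under 0.01 in the authors' deposited table, 1 OAS gene was called for DAC in siLuc. Adjustment within the comparison left 0 called in siStau1 against siLuc with DAC. That 0 cannot show a weak change, because the authors' p-value for OASL was at their floor of 5e-05. Pathway list genes called were also counted at a q-value under 0.01, an alternative chosen after seeing the data. They numbered 8 of 12 for DAC in siLuc and 11 of 15 for DAC in siStau1. The counts were 10 of 16 for siStau1 in DMSO, 4 of 9 for siStau1 in DAC and 2 of 4 for siStau1 DAC against siLuc DMSO. Of all tested genes, 7.97%, 3.93%, 0.346%, 0.197% and 3.04% were called under 0.01, in that order of comparisons. Adjusted within the comparison, all tested genes called numbered 33, not 127, for siStau1 in DMSO. The OAS2 difference between arms was 3.71 and 0.75 with pseudocounts of 0.01 and 1 FPKM. With a pseudocount of 1 FPKM, 2 of the 12 nearest genes remained. The shorter element AANNGAAA, also chosen after seeing the data, was in 2 OAS windows, against 1 for the classical form. GC centring of the list medians was likewise chosen after seeing the data. The depth of the libraries is unknown.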
